A study of Mus musculus with 6 samples.

Results

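Genes of the cell cycle and of DNA replication were examined in the descending colon of Muc2-/- and wild-type mice. The set holds 43 named genes of the 55849 genes in the deposited tables, and each was found by its gene symbol in the count table and in the FPKM table. For the comparison, 20 of them were grouped as S phase genes and 22 as G2/M genes by their textbook roles, and Stmn1, which encodes the microtubule-destabilising protein stathmin, was placed in neither group.

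Muc2 encodes the gel-forming mucin of goblet cells, from which the mucus layer of the colon is built, and Muc2-/- mice are widely used as a model of a colon without that layer. There were 3 libraries from Muc2-/- mice and 3 from wild-type C57BL/6 mice. All mice were 12 weeks old, and polyadenylated RNA was sequenced. The sample titles name colon crypts, whereas the protocols describe colon tissue. The labels give neither the mutated allele, the strain background of the Muc2-/- mice, sex, housing nor batch, and they do not say whether a library holds 1 animal. The p-values below therefore measure the spread between these libraries, which may be partly technical.

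Before S phase, the origin recognition complex with Cdc6 and Cdt1 loads the Mcm2-7 helicase onto DNA, a step known as licensing. In S phase the helicase opens the DNA, the sliding clamp Pcna holds the polymerases on it, and enzymes such as ribonucleotide reductase supply the nucleotides. Cyclin-dependent kinases then drive entry into mitosis, in which kinetochores attach chromosomes to the spindle and the anaphase-promoting complex starts their separation. In the colon, the dividing cells of the epithelium lie in the lower part of the crypts, and dividing immune and stromal cells of the wall carry the same transcripts. In bulk tissue, fewer cells of a type and less RNA per cell cannot be told apart.

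The counts assigned to genes ranged from 16627761 to 17465636 per library in Muc2-/- mice and from 16395432 to 20336459 in wild-type mice. Levels are given as CPM, the counts of a gene relative to the size of its library, scaled for library composition by the trimmed mean of M-values (TMM). Muc2 had 755, 1020 and 941 CPM in the Muc2-/- libraries, against 2477, 6967 and 2625 CPM in the wild-type libraries, so every Muc2-/- library was below every wild-type library and the transcript was present in all of them. Its log2 fold change was -2.15 (SE 0.47), with an adjusted p of 0.103 in edgeR's quasi-likelihood test with Benjamini-Hochberg adjustment. Since the allele is not described, the transcript that was present does not check the deletion. All 16 epithelial markers, among them the keratin gene Krt8, were detected in every library. Of 16107 genes tested with edgeR, 17 (0.106%) were higher and 3 (0.0186%) lower in Muc2-/- at an adjusted p under 0.05, and the median log2 fold change of all tested genes was -0.01.

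The promoters of S phase and of mitotic genes are known to differ in the factors that act on them. E2F factors act on many S phase genes, and the DREAM and MuvB complexes, together with NF-Y, act on mitotic genes through the cell cycle homology region (CHR) and CCAAT boxes. The promoter windows below are shown because they set these motifs beside genes with the largest fold changes or the highest level in their group, and beside a helicase subunit with a fold change near 0. They come from the RefSeq promoter table on build GRCm38.p6, run 5′ to 3′ on the strand of the gene, and end at the RefSeq start site unless stated. Capitals mark matches to the E2F motif (TTTCCCGC, TTTGGCGC, TTTCGCGC or TTTGCCGC), the CHR motif (TTTGAA or TTCGAA) or CCAAT, on either strand, so that ATTGG is CCAAT read on the other strand. Cdk1, Ube2c, Hmgb2 and Birc5 are G2/M genes, and Rrm2 and Mcm6 are S phase genes. Mcm6 was picked after its values were seen. The Cdk1 window is chr10:69352913-69353032 on the minus strand, Hmgb2 chr8:57511723-57511842 on the plus strand, and Ube2c chr2:164769778-164769897 on the plus strand, ending 31 bases before the RefSeq start. Birc5 is chr11:117849117-117849236 on the plus strand, Rrm2 chr12:24708134-24708253 on the plus strand, and Mcm6 chr1:128359706-128359825 on the minus strand.
Cdk1: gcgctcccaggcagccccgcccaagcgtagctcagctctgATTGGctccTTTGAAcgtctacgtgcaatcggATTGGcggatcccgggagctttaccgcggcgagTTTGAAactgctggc
Hmgb2: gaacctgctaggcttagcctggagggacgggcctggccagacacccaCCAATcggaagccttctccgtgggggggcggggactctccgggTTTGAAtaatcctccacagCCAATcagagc
Ube2c: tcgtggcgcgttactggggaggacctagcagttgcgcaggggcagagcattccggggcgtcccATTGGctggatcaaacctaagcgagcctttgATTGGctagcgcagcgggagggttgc
Birc5: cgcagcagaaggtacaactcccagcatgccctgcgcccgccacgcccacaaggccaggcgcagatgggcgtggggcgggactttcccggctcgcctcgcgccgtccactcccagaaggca
Rrm2: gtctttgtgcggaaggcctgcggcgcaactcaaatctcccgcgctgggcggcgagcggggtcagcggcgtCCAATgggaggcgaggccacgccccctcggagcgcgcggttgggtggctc
Mcm6: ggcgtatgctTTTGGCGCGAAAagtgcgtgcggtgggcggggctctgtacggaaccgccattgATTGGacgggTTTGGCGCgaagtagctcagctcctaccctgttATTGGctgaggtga

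The Cdk1 and Hmgb2 windows hold CHR and CCAAT letters together, and the Ube2c window holds CCAAT boxes with its CHR motif beginning 29 bases before the start site, outside the printed stretch. Birc5 has none of the 3 motifs in the window, and Rrm2 has a single CCAAT. Mcm6 has 3 E2F matches, of which 1 pair overlaps, and 2 CCAAT boxes. Searched over the whole 300 bases of each table entry, 250 before and 50 after the start, the E2F motif was in the promoters of 7 of 17 matched S phase genes (41.2%) and 1 of 18 matched G2/M genes (5.56%), against 2.6% of 27025 genes in the table. The CHR motif was in 3 of 17 S phase genes (17.6%) and 14 of 18 G2/M genes (77.8%), against 21.7% of all genes. CHR and CCAAT stood together in 14 of the 18 G2/M genes (77.8%) and in 9.65% of all genes. Among the 11605 tested genes with a promoter entry, the shares were 4.32% for E2F, 16.6% for CHR and 7.97% for CHR with CCAAT. A match is a description of letters and not a binding site.

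None of the 42 members that passed the count filter reached an adjusted p under 0.05 in edgeR's quasi-likelihood test with Benjamini-Hochberg adjustment, and the smallest adjusted p was 0.103. DESeq2 called 4 members higher in Muc2-/- (Ccna2, Cdk1, Birc5 and Rrm2) and 0 lower, against 3.24% of all genes higher and 6.61% lower. At an unadjusted p under 0.05, edgeR placed 12 of the 42 members (28.6%) higher in Muc2-/- and 0 lower, against 8.23% of all tested genes higher and 12.7% lower. The count depended on which libraries were included. It was 3 without the first wild-type library, against 6.08% of all genes higher. Without the third wild-type library it was 4, against 8.45%, and without the third Muc2-/- library 6, against 6.44%. Each of these fits also had fewer libraries. The fitted log2 fold change was positive for 36 of 42 members (85.7%), against 49.1% of all tested genes, and its median was 0.41. Among the members, 11 had all 3 Muc2-/- libraries above all 3 wild-type libraries in CPM (26.2%), against 13.3% of all tested genes, and 0 had them all below, against 15.2%. In the deposited FPKM, 14 members had all Muc2-/- libraries above all wild-type libraries, against 13.6% of all tested genes, and 0 had them all below, against 15.1%. With 3 libraries a group, an exact permutation test of a single gene cannot give a two-sided p below 0.1.

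The counts were also taken for S phase and G2/M genes apart. Of the 22 G2/M genes, 10 (45.5%) were higher in Muc2-/- at an unadjusted p under 0.05, 8 (36.4%) had groups that did not overlap, and 21 (95.5%) had a positive log2 fold change, with a median of 0.57 and a range of -0.23 to 1.27. Of the 19 tested S phase genes, 2 (10.5%) were higher at an unadjusted p under 0.05, a share near that of all genes. In 3 (15.8%) all Muc2-/- libraries were above all wild-type libraries in CPM, against 13.3% of all tested genes. The log2 fold change was positive for 14 of the 19 S phase genes (73.7%), against 49.1% of all tested genes. The median log2 fold change of the S phase genes was 0.16, with a range of -0.29 to 1.21, which lay 0.41 below that of the G2/M genes. Leaving out the first or the third wild-type library lowered the G2/M count to 2 of 22 each, against 6.08% and 8.45% of all genes, and leaving out the third Muc2-/- library lowered it to 5 of 22, against 6.44%. The G2/M median log2 fold change was 0.52, 0.51 and 0.42 in these fits, and the S phase median 0.24, 0.20 and -0.013. Without the second Muc2-/- library 5 of 20 S phase genes were higher at an unadjusted p under 0.05, against 9.25% of all genes, and without the third Muc2-/-, the first wild-type or the second wild-type library 1 was. No test was made of the difference between the groups of genes, since genes are not replicates.

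**Figure D1:**
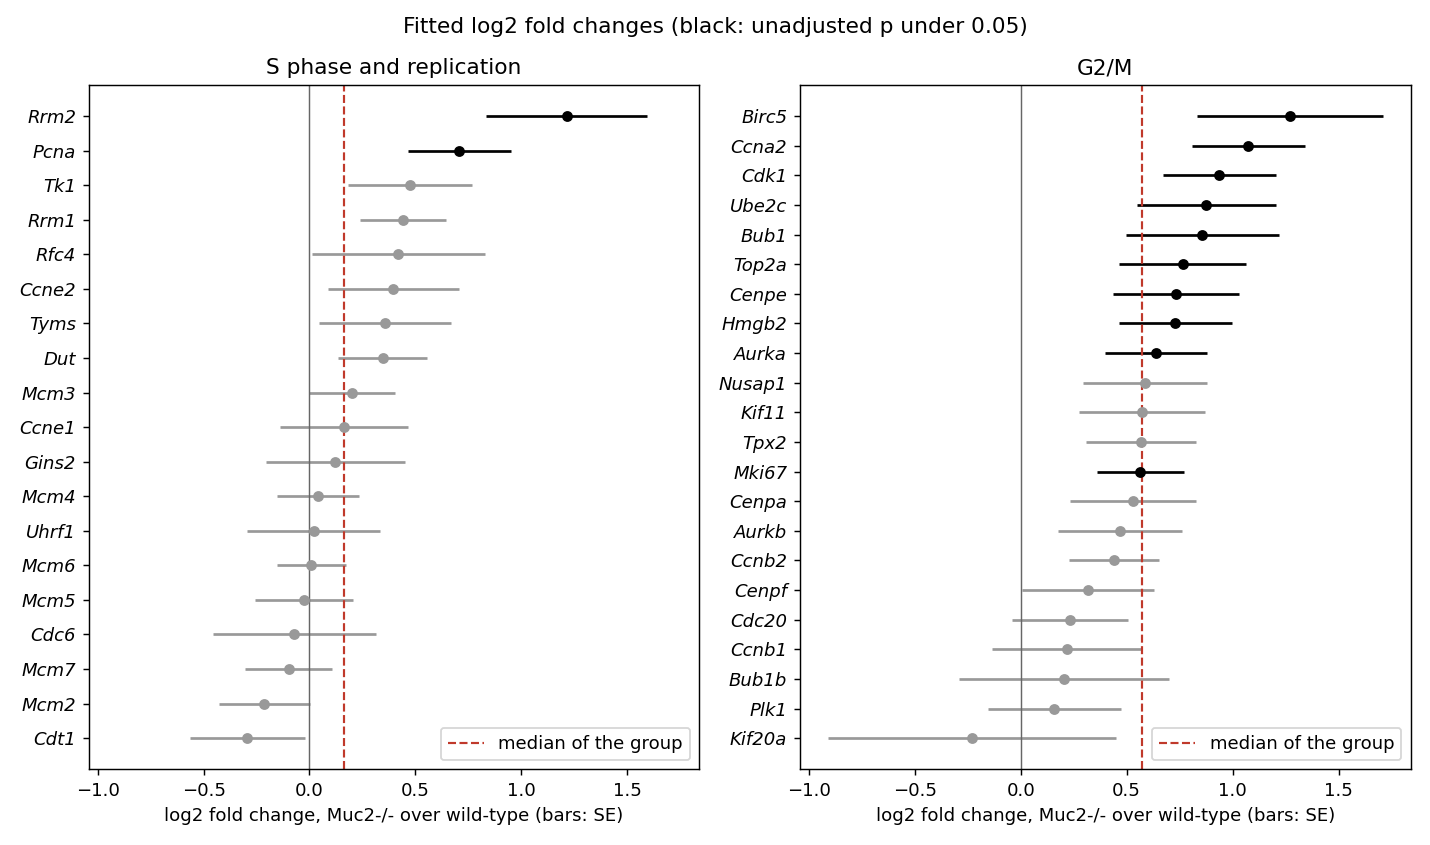
Fitted log2 fold change, Muc2-/- over wild-type, of each tested S phase gene and each G2/M gene, with bars of 1 standard error. The dashed lines mark the medians, 0.16 for S phase and 0.57 for G2/M genes, and Rrm2 and Birc5 lie farthest to the right.

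The helicase genes Mcm2 to Mcm7 had fold changes near 0. Mcm6, a subunit of the replicative helicase, had 40.0, 46.1 and 47.4 CPM in the Muc2-/- libraries, against 45.7, 43 and 44.0 CPM in the wild-type libraries. Mcm2, another subunit, had 28.7, 22 and 35.0 CPM in the Muc2-/- libraries, against 34.1, 32.6 and 32.6 CPM in the wild-type libraries. In both genes the Muc2-/- libraries lay on either side of the wild-type ones, and the wild-type libraries were the closer together. The 6 helicase genes Mcm2 to Mcm7 had log2 fold changes from -0.21 to 0.20 with a median of -0.0090, the groups overlapped in all 6, and the smallest of their adjusted p in edgeR's quasi-likelihood test with Benjamini-Hochberg adjustment was 0.604. The standard error was 0.16 for Mcm6 and 0.21 for Mcm2, so differences of that order were not detectable with these libraries.

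Cdt1, which loads the helicase together with Cdc6, had 14.4, 9.37 and 17.3 CPM in the Muc2-/- libraries, against 18.1, 16.1 and 16.3 CPM in the wild-type libraries. Its log2 fold change of -0.29 (SE 0.27) was the lowest of the tested S phase genes, and the groups overlapped through the third Muc2-/- library. Cdc6 (-0.07) and Gins2 (0.12), a subunit of the GINS complex that works with the helicase, also had groups that overlapped. Uhrf1, which brings the maintenance DNA methyltransferase to newly copied DNA, had a log2 fold change of 0.02, with 27.0, 14.2 and 33.0 CPM in the Muc2-/- libraries, against 27.9, 23.8 and 21.5 CPM in the wild-type libraries.

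The 3 S phase genes with groups that did not overlap, a share near that of all genes, encode the sliding clamp and ribonucleotide reductase. Ribonucleotide reductase is the enzyme that makes deoxyribonucleotides. Rrm2, its small subunit, had 14.3, 13.6 and 29.3 CPM in the Muc2-/- libraries, against 8.79, 10.1 and 5.71 CPM in the wild-type libraries. All Muc2-/- libraries were above all wild-type ones, and the third stood well above the others. The log2 fold change was 1.21 (SE 0.38), with an adjusted p of 0.137 in edgeR's quasi-likelihood test with Benjamini-Hochberg adjustment, 0.0272 in DESeq2, and a range of 0.0272 to 0.617 over the alternative settings. Rrm1, the large subunit, had 43, 39.3 and 59.7 CPM in the Muc2-/- libraries, against 34.1, 34.8 and 35.7 CPM in the wild-type libraries, a log2 fold change of 0.44 (SE 0.20) and an edgeR unadjusted p of 0.0635.

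Pcna had 96.4, 180 and 129 CPM in the Muc2-/- libraries, against 81.9, 82.1 and 84.6 CPM in the wild-type libraries. The wild-type libraries were nearly level and all Muc2-/- libraries were above them, by most in the second. The log2 fold change was 0.71 (SE 0.24) at an unadjusted p of 0.0203 and an adjusted p of 0.162 in edgeR's quasi-likelihood test with Benjamini-Hochberg adjustment. Rfc4, a subunit of the loader of that clamp, had 4.64, 12.3 and 6.73 CPM in the Muc2-/- libraries, against 6.19, 4.84 and 6.67 CPM in the wild-type libraries, and only the second Muc2-/- library stood out. It shares 194 bases with Eif4a2 on the other strand. Eif4a2 had 439, 690 and 383 CPM in the Muc2-/- libraries, against 363, 340 and 308 CPM in the wild-type libraries. The part of the shared bases in the Rfc4 values was not tested.

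The other enzymes of nucleotide supply had positive fold changes with groups that overlapped. The log2 fold change was 0.47 for the thymidine kinase gene Tk1, 0.35 for the thymidylate synthase gene Tyms and 0.34 for Dut, whose product breaks down dUTP. Tyms had 33.9, 17.6 and 34.1 CPM in the Muc2-/- libraries, against 19.6, 18.5 and 28.8 CPM in the wild-type libraries, with the second Muc2-/- library the lowest of all. The cyclin E genes Ccne1 and Ccne2, which act at the entry to S phase, had log2 fold changes of 0.16 and 0.40. Fen1, a nuclease that removes flaps from lagging strand fragments, had counts of 16, 0 and 17 in the Muc2-/- libraries, against 4, 9 and 11 in the wild-type libraries, and did not pass the filter. The annotated gene Gm10143 covers 3253 bases of Fen1 on the other strand, at a mean of 0.10 CPM in Muc2-/- and 0.037 CPM in wild-type libraries. Tmem258, also on the other strand, shares 156 bases with Fen1 and averaged 49.5 CPM in Muc2-/- and 47.2 CPM in wild-type libraries.

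Among the G2/M genes, the cyclin A gene Ccna2 and the kinase gene Cdk1 had the smallest p-values. Ccna2, whose product drives S phase and entry into mitosis, had 29.9, 44.3 and 47.3 CPM in the Muc2-/- libraries, against 16.3, 25.1 and 16.2 CPM in the wild-type libraries. Cdk1, the kinase of mitotic entry, had 24.9, 37.9 and 35.5 CPM in the Muc2-/- libraries, against 16.4, 21.8 and 13.1 CPM in the wild-type libraries. In both genes all Muc2-/- libraries were above all wild-type ones, and the highest wild-type library was the second. Ccna2 had a log2 fold change of 1.07 (SE 0.27), with an adjusted p of 0.103 in edgeR's quasi-likelihood test with Benjamini-Hochberg adjustment, 0.0118 in DESeq2, and a range of 0.0118 to 0.678 over the alternative settings. Cdk1 had a log2 fold change of 0.94 (SE 0.27), with an edgeR adjusted p by Benjamini-Hochberg of 0.118, 0.0296 in DESeq2, and a range of 0.0296 to 0.968 over the alternative settings. The count table places Ccna2 on chromosome 3, start 36619014 and end 36626299, where it shares 863 bases with Exosc9 on the other strand. Exosc9, an exosome subunit, had 19.9, 47.7 and 21.8 CPM in the Muc2-/- libraries, against 15.5, 14.7 and 15.9 CPM in the wild-type libraries, and the part of the shared bases in the Ccna2 values was not tested.

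The cyclin B genes encode the activators of Cdk1 in mitosis. Ccnb2 had 19, 24.1 and 23.3 CPM in the Muc2-/- libraries, against 15.8, 18.6 and 14.5 CPM in the wild-type libraries, so that the groups just failed to overlap, at a log2 fold change of 0.44. Ccnb1 had 11.7, 5.81 and 14.1 CPM in the Muc2-/- libraries, against 8.13, 9.99 and 9.05 CPM in the wild-type libraries, with the second Muc2-/- library the lowest and a log2 fold change of 0.22. Each has an annotated pseudogene copy, Ccnb2-ps with 2 to 28 counts per library and Ccnb1-ps with 2 to 13.

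**Figure D2:**
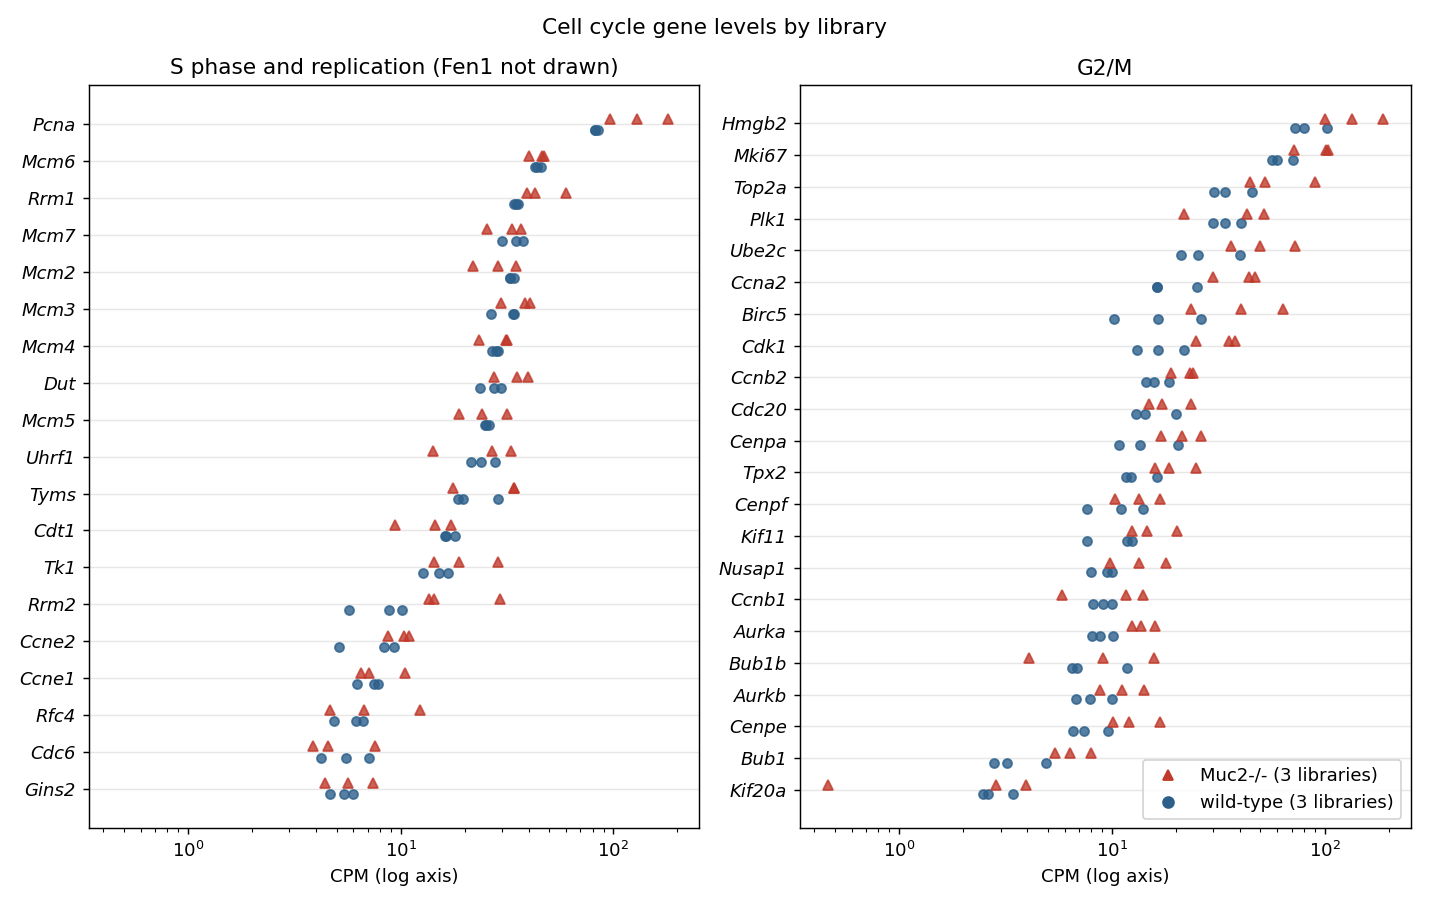
CPM of the S phase genes except Fen1 (left) and of the G2/M genes (right) in every library on a log axis. Triangles are the 3 Muc2-/- and circles the 3 wild-type libraries, and Stmn1 is not drawn. The triangles of Ccna2, Cdk1, Rrm2 and Pcna lie to the right of all circles of the same gene. In the Mcm genes the ranges of triangles and circles overlap.

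Of the mitotic kinases, Aurka was higher in Muc2-/- at an unadjusted p under 0.05 and Plk1 was not. Aurka, a kinase of the spindle poles, had 12.4, 13.7 and 16 CPM in the Muc2-/- libraries, against 8.85, 10.1 and 8.05 CPM in the wild-type libraries, with no overlap and a log2 fold change of 0.64 (SE 0.24). Plk1, which acts at several steps of mitosis, had 43.4, 21.8 and 51.7 CPM in the Muc2-/- libraries, against 29.9, 34.1 and 40.7 CPM in the wild-type libraries. The second Muc2-/- library was again the lowest, and the log2 fold change was 0.16. Plk1 shares 1016 bases with the unnamed transcript Gm44985 on the other strand, which had 46.2 to 57.1 CPM in the Muc2-/- libraries and 42.1 to 59.3 CPM in the wild-type libraries. Aurkb, the kinase of the chromosomal passenger complex, had a log2 fold change of 0.47 with groups that overlapped.

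Birc5 encodes survivin, the partner of Aurkb in that complex. It had 23.6, 63.6 and 40.4 CPM in the Muc2-/- libraries, against 16.5, 26.2 and 10.2 CPM in the wild-type libraries. The first Muc2-/- library was below the second wild-type library, so the groups overlapped. The log2 fold change was 1.27 (SE 0.44), the highest of the members, with an adjusted p of 0.162 in edgeR's quasi-likelihood test with Benjamini-Hochberg adjustment, 0.0383 in DESeq2, and a range of 0.0383 to 0.604 over the alternative settings.

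Genes of chromosome structure and of the kinetochore come next. Mki67, the proliferation marker that coats mitotic chromosomes, had 71.6, 102 and 103 CPM in the Muc2-/- libraries, against 59.8, 70.7 and 56.7 CPM in the wild-type libraries, a log2 fold change of 0.57 (SE 0.21). The lowest Muc2-/- value was only just above the highest wild-type value. Top2a, the topoisomerase that untangles sister chromatids, had 52.5, 44.6 and 89.7 CPM in the Muc2-/- libraries, against 30.3, 45.6 and 34.2 CPM in the wild-type libraries, with a log2 fold change of 0.76 (SE 0.30) and groups that overlapped by about 1 CPM. Hmgb2, a chromatin protein abundant in dividing cells, had 100, 188 and 134 CPM in the Muc2-/- libraries, against 79.8, 102 and 72.3 CPM in the wild-type libraries, with a log2 fold change of 0.73 (SE 0.27) and groups that overlapped slightly. The edgeR adjusted p by Benjamini-Hochberg was 0.179 for Mki67 and for Hmgb2 and 0.201 for Top2a.

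Cenpe, the kinetochore motor, had 12.1, 10.2 and 16.8 CPM in the Muc2-/- libraries, against 6.58, 9.58 and 7.38 CPM in the wild-type libraries, a log2 fold change of 0.73 (SE 0.30) with no overlap. Cenpa, the histone variant of centromeres, and Cenpf, a protein of the outer kinetochore, had log2 fold changes of 0.53 and 0.32 with groups that overlapped. The spindle checkpoint kinase Bub1 had 5.41, 6.33 and 8.02 CPM in the Muc2-/- libraries, against 3.21, 4.89 and 2.81 CPM in the wild-type libraries, with no overlap and a log2 fold change of 0.86 (SE 0.36). Its relative Bub1b did not separate the groups, with 9.10, 4.09 and 15.9 CPM in the Muc2-/- libraries, against 6.53, 11.8 and 6.86 CPM in the wild-type libraries.

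Ube2c and Cdc20 encode partners of the anaphase-promoting complex. Ube2c, its ubiquitin-conjugating enzyme, had 36.3, 72.6 and 49.8 CPM in the Muc2-/- libraries, against 25.4, 40.0 and 21.1 CPM in the wild-type libraries. The first Muc2-/- library was below the second wild-type library, and the log2 fold change was 0.88 (SE 0.33) at an edgeR unadjusted p of 0.0285. Cdc20, its activator, had 15, 17.3 and 23.5 CPM in the Muc2-/- libraries, against 12.9, 20.1 and 14.4 CPM in the wild-type libraries, a log2 fold change of 0.23 (SE 0.27), and the difference between these genes was not tested.

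Of the spindle proteins, Kif11, the motor that pushes spindle poles apart, had 12.5, 14.6 and 20.4 CPM in the Muc2-/- libraries, against 7.63, 12.4 and 11.9 CPM in the wild-type libraries. The groups lay next to each other without overlap, and the log2 fold change was 0.57. The microtubule proteins Tpx2 and Nusap1 had log2 fold changes of 0.57 and 0.59 with groups that overlapped in CPM and not in FPKM. Kif20a, a motor of late mitosis, had 2.85, 0.462 and 3.95 CPM in the Muc2-/- libraries, against 2.49, 3.44 and 2.62 CPM in the wild-type libraries. It was the only tested G2/M gene with a negative log2 fold change, -0.23 (SE 0.68), and shares 2327 bases with Cdc23 on the other strand. Stmn1 had 70.6, 207 and 87.5 CPM in the Muc2-/- libraries, against 96.1, 97.4 and 81.3 CPM in the wild-type libraries, and its log2 fold change of 0.41 (SE 0.39) rested on the second Muc2-/- library, without which it was -0.19.

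Per length of transcript, the order of the members was led by a few genes. On the deposited FPKM scale Stmn1 averaged 64.0 ± 39.9 in Muc2-/- libraries and 47.2 ± 3.63 in wild-type libraries, and Pcna averaged 56.9 ± 18.5 in Muc2-/- libraries and 34.2 ± 1.46 in wild-type libraries (SD, n = 3 each). Hmgb2 averaged 47.3 ± 15.4 FPKM in Muc2-/- libraries and 28.0 ± 4.93 FPKM in wild-type libraries. Ube2c averaged 20.5 ± 7.39 FPKM in Muc2-/- libraries and 11 ± 3.67 FPKM in wild-type libraries, where Plk1 at 15.8 FPKM and Dut at 11.04 FPKM stood above it. Among the Muc2-/- libraries, Stmn1, Pcna and Hmgb2 differed by less than their spread, whereas Hmgb2 lay above Ube2c by more than it. Among the wild-type libraries, Stmn1, Pcna and Hmgb2 lay apart by more than the SD of either neighbour. The 6 Mcm genes averaged 4.12 to 9.73 FPKM in Muc2-/- libraries and 4.71 to 9.40 FPKM in wild-type libraries. At the low end Kif20a averaged 0.559 ± 0.411 FPKM in Muc2-/- libraries and 0.651 ± 0.116 FPKM in wild-type libraries. Counting error was small beside the spread among the Muc2-/- libraries. The coefficient of variation expected from the counts alone was 2.27% for Hmgb2 and 4.43% for Ccna2, whereas between the Muc2-/- libraries it was 31.3% for Hmgb2 and 22.9% for Ccna2.

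Library by library, the S phase and G2/M genes were farthest apart in the first and the third wild-type library. The mean log2 CPM of the 22 G2/M genes was 4.19, 4.21 and 4.68 in the Muc2-/- libraries, against 3.70, 4.15 and 3.64 in the wild-type libraries. The mean of the 19 tested S phase genes was 4.25, 4.22 and 4.67 in the Muc2-/- libraries, against 4.27, 4.18 and 4.12 in the wild-type libraries. The first and the third wild-type library had low G2/M genes beside ordinary S phase genes, and the second wild-type library did not. The S phase mean exceeded the G2/M mean by 0.064, 0.0099 and -0.0050 in the Muc2-/- libraries, against 0.57, 0.032 and 0.48 in the wild-type libraries. The groups thus overlapped in this difference, since the second wild-type library lay among the Muc2-/- ones. Within the wild-type group, that library was the highest in 20 of 22 G2/M genes and in 2 of 20 S phase genes. Summed, the S phase genes had 485, 548 and 633 CPM in the Muc2-/- libraries, against 476, 453 and 449 CPM in the wild-type libraries. The G2/M genes summed to 553, 749 and 786 CPM in the Muc2-/- libraries, against 400, 537 and 388 CPM in the wild-type libraries.

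**Figure D3:**
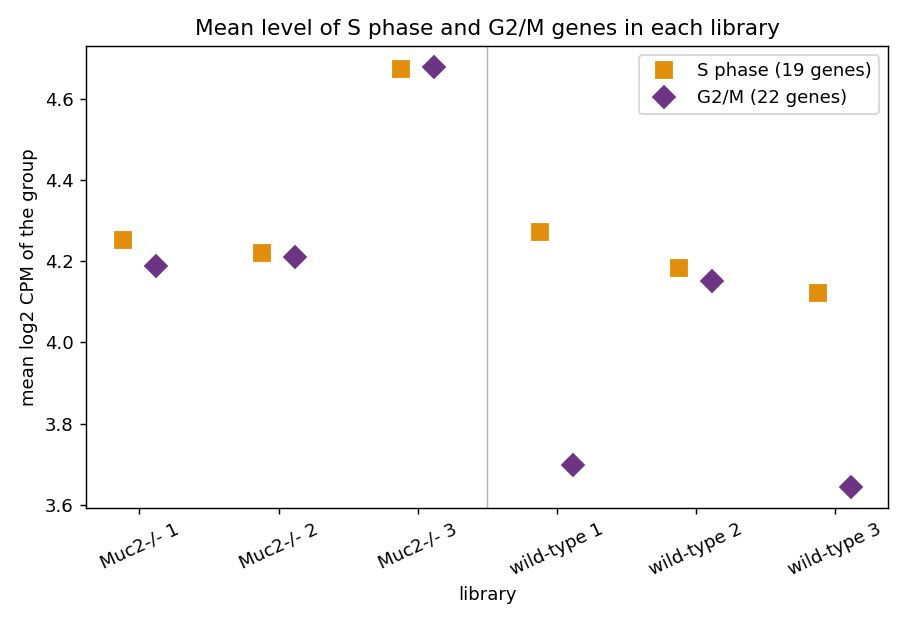
Mean log2 CPM of the 19 tested S phase and of the 22 G2/M genes in each library, Muc2-/- libraries on the left. The 2 means nearly coincide in the Muc2-/- libraries and in the second wild-type library, and the G2/M mean lies 0.57 and 0.48 lower in the first and the third wild-type library.

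The Muc2-/- libraries also differed among themselves. The third Muc2-/- library was the highest of all libraries in 30 of 43 genes, 15 of 20 S phase and 15 of 22 G2/M, and the lowest in 0. The second was the highest in 11 genes, including Pcna, Hmgb2, Birc5, Ube2c and Stmn1, and the lowest in 13, including Plk1, Ccnb1, Bub1b and Kif20a. The first was the highest in 0 genes. The 11 genes highest in the second Muc2-/- library had a median listed length of 2600 bases, against 4238 bases for the 30 highest in the third. Over all 16107 tested genes, the Spearman correlation of a library's deviation with listed gene length was -0.245 in the second Muc2-/- library and between -0.0126 and 0.154 in the others. In that library it was -0.623 over the 19 S phase genes, 0.0322 over the 22 G2/M genes and -0.257 over all 42 tested members. The part of gene length in the values of these genes was not tested beyond removing its trend, after which 15 members were higher at an unadjusted p under 0.05, against 9.54% of all genes.

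**Figure D4:**
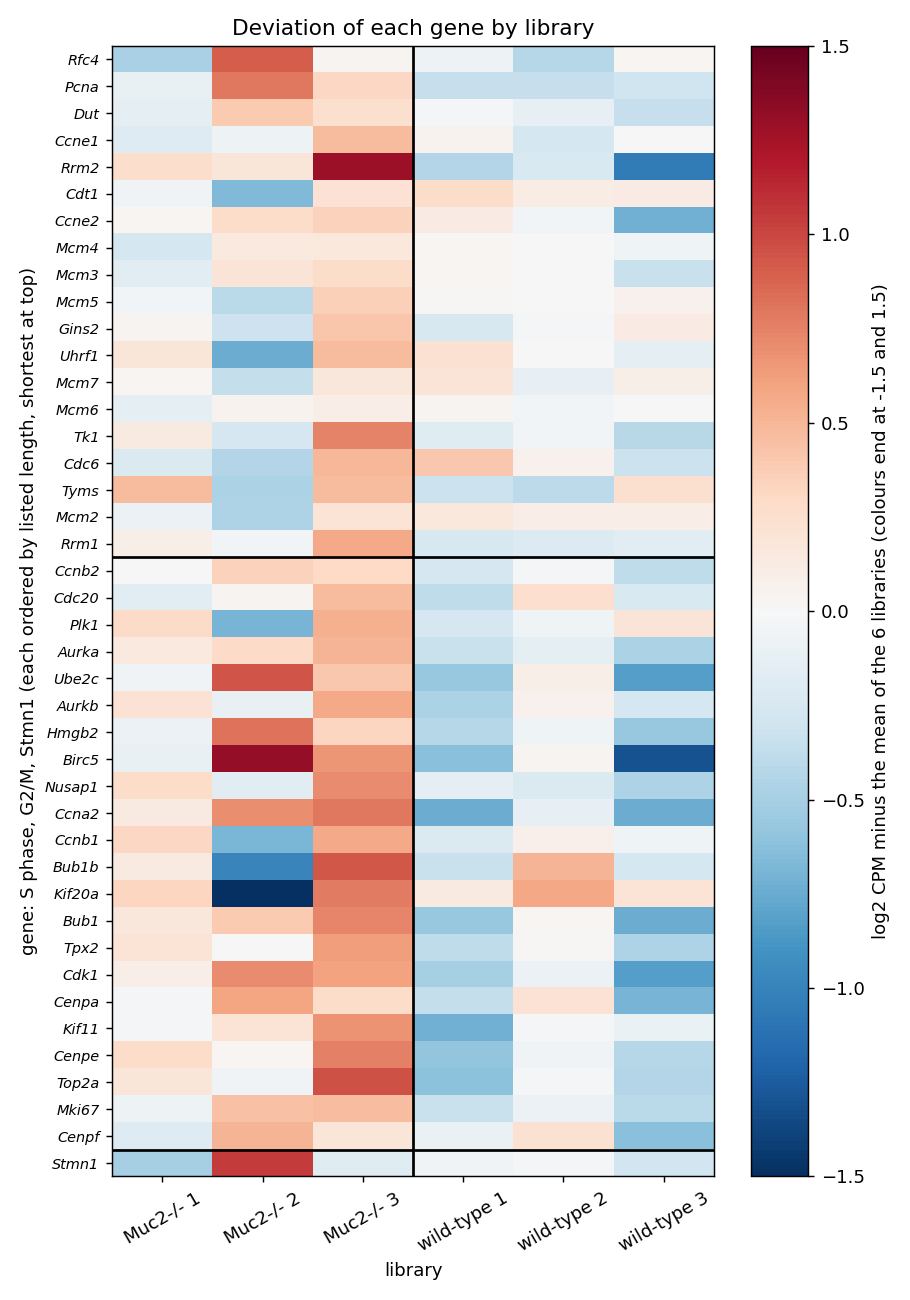
Log2 CPM of each gene except Fen1, minus its mean over the 6 libraries. Rows are genes ordered by listed length within S phase, G2/M and Stmn1, and Muc2-/- libraries are in the left columns. The third Muc2-/- library is high in most rows, the second is high in some short genes and low in others, and the third wild-type library is the lowest in 13 of 22 G2/M genes.

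Other genes of the same processes were compared to see whether the members stood alone. Of 46 other replication genes, edgeR's quasi-likelihood test with Benjamini-Hochberg adjustment called 0. DESeq2 called 1 higher and 0 lower, against 3.24% and 6.61% of all genes. At an unadjusted p under 0.05, edgeR placed 6 (13%) higher and 0 lower, against 8.23% and 12.7% of all tested genes. The median log2 fold change of the 46 genes was 0.23. In CPM, 9 (19.6%) had all Muc2-/- libraries above all wild-type libraries and 2 had them all below, against 13.3% and 15.2% of all tested genes. Rpa3, a subunit of the single-strand binding protein, Dbf4, the activator of the Cdc7 kinase, and the DNA ligase gene Lig1 had log2 fold changes of 0.65, 0.78 and 0.57, each with no overlap.

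Of 54 other mitotic genes, edgeR called 0 at an adjusted p under 0.05. DESeq2 called 3 higher and 0 lower, against 3.24% and 6.61% of all genes. At an unadjusted p under 0.05, edgeR placed 10 (18.5%) higher and 0 lower, against 8.23% and 12.7% of all tested genes. The median log2 fold change was 0.52. In CPM, 13 (24.1%) had all Muc2-/- libraries above all wild-type libraries and 0 had them all below, against 13.3% and 15.2% of all tested genes. Spc25, a subunit of the Ndc80 kinetochore complex, had 17.4, 24.6 and 20.3 CPM in the Muc2-/- libraries, against 6.19, 9.47 and 7.62 CPM in the wild-type libraries. The groups were far apart, with a log2 fold change of 1.42 (SE 0.26). Its adjusted p was 0.0948 in edgeR's quasi-likelihood test with Benjamini-Hochberg adjustment and ranged from 0.000358 to 0.311 over the alternative settings. The kinesin gene Kif4, the spindle gene Tacc3 and the passenger complex gene Cdca8 had log2 fold changes of 0.90, 0.95 and 0.70, each with no overlap.

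Of 40 tested cell cycle regulators, edgeR called 0 at an adjusted p under 0.05. DESeq2 called 1 higher and 1 lower, against 3.24% and 6.61% of all genes. At an unadjusted p under 0.05, edgeR placed 3 (7.5%) higher and 5 (12.5%) lower, both near the shares of all genes. E2f2, an activating E2F factor, had 30.6, 34.8 and 43.9 CPM in the Muc2-/- libraries, against 6.31, 11.4 and 7.29 CPM in the wild-type libraries. The groups were far apart, with a log2 fold change of 2.13 (SE 0.29). The adjusted p was 0.0544 in edgeR's quasi-likelihood test with Benjamini-Hochberg adjustment, just above the threshold, and ranged from 4.17e-08 to 0.213 over the alternative settings. Cdk6, a kinase of G1, had 12.7, 9.90 and 12.8 CPM in the Muc2-/- libraries, against 17.3, 28.1 and 22.3 CPM in the wild-type libraries. Wee1, the kinase that holds Cdk1 inactive, had 22.1, 12.5 and 13.6 CPM in the Muc2-/- libraries, against 25.3, 25.6 and 40.6 CPM in the wild-type libraries. Both were lower in every Muc2-/- library, with log2 fold changes of -0.93 and -0.92. The cell cycle inhibitor gene Cdkn1a had 385, 412 and 588 CPM in the Muc2-/- libraries, against 251, 369 and 342 CPM in the wild-type libraries, with no overlap and a log2 fold change of 0.53.

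Markers of cell types moved with genotype beside these genes. The 16 epithelial markers summed to 34720 to 50776 CPM in the Muc2-/- libraries, against 15541 to 28234 CPM in the wild-type libraries. Of these, 5 of 16 (31.2%) were higher at an unadjusted p under 0.05, against 8.23% of all tested genes. The 12 smooth muscle markers summed to 3078 to 5817 CPM in the Muc2-/- libraries, against 7298 to 25862 CPM in the wild-type libraries. Of these, 11 of 12 (91.7%) were lower at an unadjusted p under 0.05, against 12.7% of all tested genes. The 14 neuron and glia markers summed to 70.3 to 120 CPM in the Muc2-/- libraries, against 124 to 527 CPM in the wild-type libraries. The epithelial and muscle sums thus separated the groups, in opposite directions.

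Immune markers also differed. The 8 plasma cell markers summed to 4185 to 5752 CPM in the Muc2-/- libraries, against 1005 to 1362 CPM in the wild-type libraries. The 12 myeloid markers summed to 614 to 1148 CPM in the Muc2-/- libraries, against 222 to 449 CPM in the wild-type libraries, and 2 of the 12 were at 0 counts in all wild-type libraries. A large part of these sums came from 1 marker. It had 611, 395 and 544 CPM in the Muc2-/- libraries, against 133, 75.7 and 231 CPM in the wild-type libraries. The 12 T and NK cell markers summed to 15.1 to 39.1 CPM in the Muc2-/- libraries, against 5.99 to 16.5 CPM in the wild-type libraries. The 13 B cell and follicle markers, genes of cells that divide in germinal centres, summed to 18.3 to 80.0 CPM in the Muc2-/- libraries, against 12.6 to 189 CPM in the wild-type libraries, with the first wild-type library the highest. The 10 stroma and endothelium markers summed to 582 to 787 CPM in the Muc2-/- libraries, against 671 to 1299 CPM in the wild-type libraries. The part of any of these cell types in the levels of the cell cycle genes was not tested.

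Crypt stem cell markers did not run with the G2/M genes. The 12 markers summed to 884 to 1291 CPM in the Muc2-/- libraries, against 742 to 1020 CPM in the wild-type libraries. Yet 5 of 11 tested (45.5%) were lower at an unadjusted p under 0.05, against 12.7% of all tested genes. The median log2 fold change of the tested markers was -0.54. Axin2, a target of Wnt signalling, had 10.6, 7.52 and 13.2 CPM in the Muc2-/- libraries, against 35.4, 28.7 and 26.0 CPM in the wild-type libraries. Ascl2, a transcription factor of crypt stem cells, had 3.63, 3.17 and 4.69 CPM in the Muc2-/- libraries, against 9.46, 12.2 and 12.5 CPM in the wild-type libraries. In both, every Muc2-/- library was well below every wild-type library, with log2 fold changes of -1.52 and -1.57. Prom1, the marker of highest level in this list, had 350, 694 and 380 CPM in the Muc2-/- libraries, against 276, 412 and 196 CPM in the wild-type libraries. Its groups overlapped, and its log2 fold change of 0.69 (SE 0.37) had the opposite sign.

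Set against epithelial transcripts, the median of the G2/M genes turned negative. Per 1000 summed CPM of epithelial markers, the G2/M genes had 15.9, 14.8 and 21.7 CPM in the Muc2-/- libraries, against 25.8, 21.9 and 13.7 CPM in the wild-type libraries, and the groups overlapped. The S phase genes had 14.0, 10.8 and 17.5 CPM on that scale in the Muc2-/- libraries, against 30.6, 18.5 and 15.9 CPM in the wild-type libraries. Scaling all genes to the epithelial markers moved the median of all tested genes to -0.89, and the medians became -0.72 for the S phase genes and -0.28 for the G2/M genes. The fitted log2 fold change was negative for 38 of 42 members on that scale. The G2/M median was above the S phase median, by 0.44, and the median of both groups was above that of all genes.

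**Figure D5:**
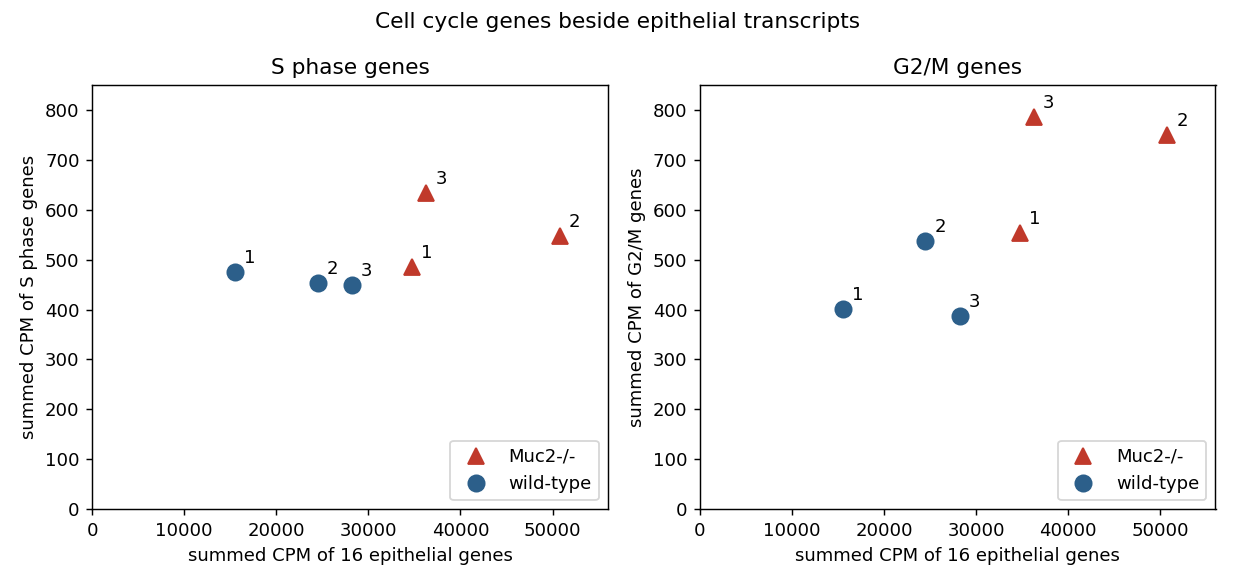
Summed CPM of the S phase genes and of the G2/M genes against the summed CPM of 16 epithelial markers, with triangles for Muc2-/- and circles for wild-type libraries. Muc2-/- libraries lie to the right at 34720 to 50776 CPM of epithelial markers, and their G2/M sums of 553 to 786 CPM are above the wild-type sums of 388 to 537 CPM.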

How the data were processed

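Polyadenylated RNA of the descending colon was sequenced in 6 libraries, grouped by the genotype in their titles. The authors deposited whole-number counts per gene and FPKM values, per the file headers. The submitters' processing notes name mm10, featureCounts 1.5.0-p3, HISAT2 2.0.5, DESeq2 1.20.0 and StringTie 1.3.3b without their roles. No label gives the strand setting. The deposited FPKM equal counts divided by listed gene length and by library total times a library factor of 0.860 to 1.14. Gene coordinates in the tables differ from those of GRCm38 and are printed only as the count table gives them.

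Here, genes kept by edgeR's filterByExpr (minimum count 10, total 15) were scaled by TMM and tested with glmQLFit and glmQLFTest (edgeR 4.0.16, R 4.3.3), genotype alone, with Benjamini-Hochberg adjustment over 16107 genes and a threshold of 0.05, and limits on unadjusted p at the same value. The fit was tested on simulated data. Alternatives were other scalings and filters, DESeq2 1.42.0, limma-voom and log2(FPKM + pseudocount) with limma 3.58.1, pseudocounts 1 and 0.1, a replicate block, and each library left out. Removing a gene length trend and leaving out wild-type 1 with Muc2-/- 2 were chosen after seeing the data. The members and all gene lists were chosen with earlier results of these data known. All 43 members may be named. From the other pathway lists the genes past the adjusted threshold, up to 4 with the smallest unadjusted p under 0.05 and the 2 of highest mean CPM qualified. From each cell type list the gene of highest mean CPM and up to 2 of smallest p qualified. A gene that qualified is not reported here. Promoter windows were those of the largest folds and highest levels. Promoters were matched by symbol for 35 of 43 members, and the Pcna and Tk1 windows, which lie before the annotated gene and hold none of the motifs, are not printed.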

Additional observations from a re-analysis of the deposited data

How the results depend on the processing

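The count of members higher at an adjusted p under 0.05 was 0 with edgeR, 2 without a filter, 4 with DESeq2 and 1 with the replicate block, and 0 under the other alternatives run. Over all genes, edgeR called 17 higher and 3 lower, DESeq2 614 and 1253, edgeR without a filter 384 and 815, and the block 225 and 448. The count of members higher at an unadjusted p under 0.05 was 12, and 3 to 14 with 1 library left out. It was 5 without composition factors (4.69% of all genes), 0 when scaled to epithelial transcripts (0.944%) and 6 with wild-type 1 and Muc2-/- 2 left out (9.86%). Scaled to epithelial transcripts, 5 members were lower at an unadjusted p under 0.05, against 40.7% of all genes, and the medians were -0.72 (S phase) and -0.28 (G2/M). The S phase minus G2/M median was -0.41, and -0.17 with wild-type 1 and Muc2-/- 2 left out. The fitted signs turned for 32 of 42 members when scaled to epithelial transcripts, which shifted the median of all genes by -0.88, and for 6 without composition factors, which shifted it by -0.185.

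Values of single members under these 2 scalings are given below relative to the shift of all genes. On that basis, 38 of 836 values had the opposite sign, over 14 genes, and the cause was not tested. With wild-type 1 and Muc2-/- 2 left out, the log2 fold change of Stmn1 was -0.18, the log2 fold change of Mcm7 0.11, the log2 fold change of Mcm4 -0.0025, the log2 fold change of Mcm5 0.13, the log2 fold change of Rfc4 -0.022, the log2 fold change of Cdc6 0.31 and the log2 fold change of Kif20a 0.17. The log2 fold change of Mcm6 was -0.013 scaled to epithelial transcripts and -0.0019 with the stricter filter. Mcm5 was 0.0074 scaled to epithelial transcripts, and with the length trend removed Mcm5 was 0.016 and Cdc6 0.018. The log2 fold change of Uhrf1 was -0.045 with limma-voom, -0.020 on log2(FPKM + 1) with and without a filter, -0.035 on log2(FPKM + 0.1) and -0.055 with the replicate block. With 1 library left out, the ranges were -0.19 to 0.69 for Stmn1, -0.021 to 0.087 for Mcm6, the log2 fold change of Plk1 -0.086 to 0.47, -0.20 to 0.064 for Mcm7, -0.013 to 0.18 for Mcm4, -0.22 to 0.16 for Mcm5, -0.23 to 0.32 for Uhrf1, the log2 fold change of Ccnb1 -0.034 to 0.53, the log2 fold change of Bub1b -0.33 to 0.60, the log2 fold change of Ccne1 -0.055 to 0.30, -0.032 to 0.70 for Rfc4, the log2 fold change of Gins2 -0.074 to 0.31, -0.39 to 0.14 for Cdc6 and -0.76 to 0.28 for Kif20a.

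Replicate numbers were not taken as pairs, since they stand only in the sample titles. Same-numbered libraries correlated at 0.0937, 0.281 and 0.0606 in their deviations. Muc2-/- 1 and Muc2-/- 2 each correlated best with the wild-type library of the same number. Muc2-/- 3 correlated about as well with wild-type 1 (0.0636) as with wild-type 3 (0.0606). Whether the libraries were paired cannot be told from these values. With the replicate block, 1 member (Ccna2) was past the adjusted threshold and 9 were higher at an unadjusted p under 0.05, against 8.37% of all genes. The spread between libraries exceeded the counting error in both groups for the members with the fewest counts, Fen1 and Kif20a. Among the wild-type libraries this did not hold for every member with more counts. The wild-type coefficient of variation was 1.83% for Pcna and 2.00% for Mcm5, among others. The counts alone would give 2.31% and 4.73%.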

Other observations

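Within the S phase genes, the fold changes were also compared by whether the promoter held an E2F motif, a split noticed after the values were seen and given as a description with no test. The 7 tested genes with a match (Cdc6, Cdt1, Mcm3, Mcm5, Mcm6, Mcm7 and Uhrf1) had log2 fold changes from -0.29 to 0.20 with a median of -0.026. The 9 without a match (Ccne1, Dut, Mcm2, Pcna, Rfc4, Rrm1, Rrm2, Tk1 and Tyms) had log2 fold changes from -0.21 to 1.21 with a median of 0.42. The same split did not separate the other replication genes, where 12 genes with a match had a median of 0.22 and 24 without had a median of 0.18. Among the G2/M genes, the median was 0.57 for 14 genes with a CHR motif and 0.66 for 4 without, and among the other mitotic genes it was 0.53 for 35 with and 0.62 for 11 without. Over all tested genes in the promoter table the median was -0.026 for 501 genes with an E2F match and -0.013 for 11104 without.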
